A study of Mus musculus and Rattus norvegicus with 18 samples.

Results

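Ion channels of the voltage-gated families and their relatives were followed through 3 count tables of hearts and heart-derived cells that lack the tRNA methyltransferase Mettl1. A gene was a member if its symbol began with Kcn (potassium channels and their partners), Cacn (calcium channels) or Clcn (chloride channels and exchangers), or named a sodium channel subunit (Scn with a number and a or b) or a pacemaker channel (Hcn with a number), and if it had at least 20 counts summed over a table's libraries. By this rule 96 of 55487 genes were members in heart RNA, 87 of 17866 in heart ribosome footprints and 83 of 32883 in H9C2 cells, 122 different symbols in all, of which 51 were members in all 3 tables. The rule used symbols and summed counts alone, but it was chosen with earlier results of these data known.

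A heartbeat is a timed sequence of such channels. Sodium channels carry the upstroke of the ventricular action potential, L-type calcium channels hold its plateau and trigger contraction, and several potassium currents end it, while HCN and T-type calcium channels take part in pacemaking. Each pore-forming subunit works with auxiliary subunits that set its gating and its number at the membrane. Mouse ventricle repolarises mainly through fast voltage-gated potassium currents, and in many animals embryonic heart uses T-type and HCN channels more widely than adult ventricle.

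The hearts came from 4-week-old C57BL/6 mice. One group was a conditional Mettl1 knockout (cKO, labelled M1cKO), and its control group was labelled Ctrl; the sources used here do not give the promoter that drives the deletion, the cells it acts in or the alleles of the controls. Each genotype had 2 RNA-seq libraries and 2 Ribo-seq libraries, and the labels do not tie an RNA and a footprint library to the same heart. H9C2 is a myoblast line from embryonic rat heart (labelled Sprague-Dawley), of which 3 libraries came from a Mettl1-null line, made with CRISPR-Cas9 by a frameshift, and 3 from cells with normal Mettl1 (WT). The null cells are described as 1 edited line, so clone and genotype cannot be told apart. The remaining 4 heart samples of the 18 were tRNA libraries, which were not analysed here.

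Heart RNA libraries held 15052652 to 16844783 counts, Ribo-seq libraries 24892166 to 39250078 footprints in the frames used, and H9C2 libraries 90321496 to 94202947 counts. Levels are given as CPM, the counts of each library scaled to a common total with edgeR's TMM factors, and a gene was called when its adjusted p in edgeR's quasi-likelihood test was under 0.05 over all genes of that table. Mettl1 itself had 2.49 and 2.52 CPM in cKO RNA, against 4.31 and 3.76 CPM in Ctrl RNA (log2 fold change -0.69, SE 0.24, adjusted p = 0.0664). Its footprints were at 2.22 and 2.22 CPM in cKO hearts, against 6.28 and 6.62 CPM in Ctrl hearts (log2 fold change -1.54, adjusted p = 1.0e-04). The labels do not state that each library of a group was a separate animal or culture, and the p-values therefore reflect only how much these libraries varied, which may be technical variation.

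Footprints per kilobase of coding frame put the channels of the Ctrl heart in order, since this level can be compared between genes. Kcnk3, the acid-sensitive tandem-pore background potassium channel TASK-1, was first with 74.8 to 80.4 CPM per kb in cKO hearts and 95.0 to 110.3 CPM per kb in Ctrl hearts. Cacna2d1, the alpha2delta subunit of the L-type calcium channel, followed with 56.1 ± 0.821 CPM per kb in cKO and 82.5 ± 4.39 CPM per kb in Ctrl hearts (SD, n = 2 each). Then came Kcnip2, which binds the transient outward channels and alters their gating, with 61.5 ± 1.72 CPM per kb in cKO and 69.4 ± 2.05 CPM per kb in Ctrl hearts, and Kcne1, the partner of Kcnq1 in the slow delayed rectifier, with 76.0 ± 1.43 in cKO and 68.0 ± 3.53 CPM per kb in Ctrl hearts. In Ctrl hearts the libraries of Kcnip2 and Kcne1 overlapped, and so did those of Kcnj2, Cacnb2 and Kcng2 behind them. In cKO hearts the libraries of Kcnk3 overlapped those of Kcne1 (75.0 and 77.0 CPM per kb). The pore subunit of the L-type calcium channel, Cacna1c, stood in place 9 of the Ctrl order (26.4 ± 0.505 CPM per kb in cKO, 34.8 ± 0.182 CPM per kb in Ctrl hearts). Its Ctrl libraries lay between those of Kcnj11 in place 8 (32.98 and 38.25 CPM per kb). Scn4b, a beta subunit of the sodium channel, had a mean of 12.1 CPM per kb in cKO and 7.10 CPM per kb in Ctrl hearts, and so stood in place 19 in cKO and place 23 in Ctrl hearts. These places are not firm, since its libraries overlapped those of Kcna5 in cKO hearts and those of Kcnd2 in Ctrl hearts.

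**Figure D1:**
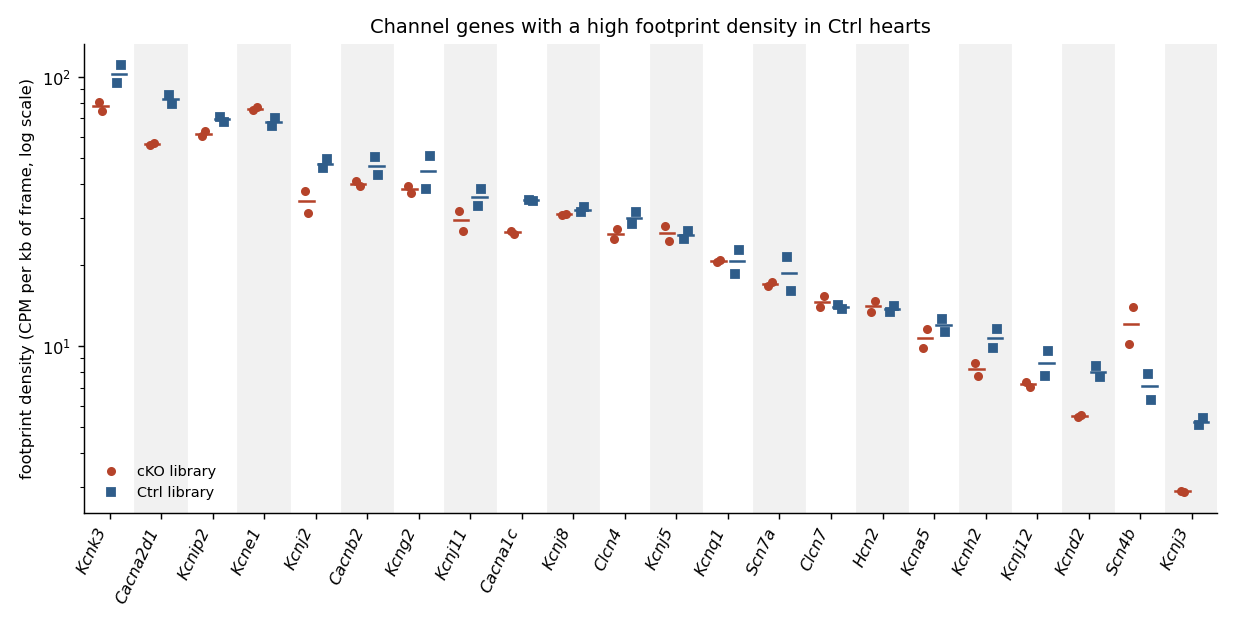
Ribosome footprint density (CPM per kb of coding frame, log axis) of channel genes with a high density in Ctrl hearts, in falling order, with 1 point per library (cKO circles left, Ctrl squares right) and a line at each mean. Most genes lie slightly lower or level in cKO hearts, while the cKO libraries of Scn4b and Kcne1 lie above their Ctrl libraries.

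In heart RNA 87 of the 96 members had enough counts to be tested, and 23 passed the test, 8 higher and 15 lower in cKO hearts. That is 26.4% of the tested members, against 14.4% of all genes tested. Called changes of at least 2-fold were found in 8 members, and in 2.07% of all genes. By direction, 9.2% of the members were higher, against 8.16% of all genes, and 17.2% were lower, against 6.26% of all genes. The median log2 fold change of the tested members was -0.12, and that of all genes tested was -0.0. In 54 members (62.1%) the 2 cKO libraries lay wholly on one side of the 2 Ctrl libraries, which was so for 55.0% of all genes. The summed level of the members was 2352 and 2445 CPM in cKO RNA, against 2670 and 2677 CPM in Ctrl RNA. Among genes with a mean of at least 10 CPM, 12 of 34 members were lower (35.3%), against 9.54% of all genes at that level, and 4 were higher (11.8%, against 9.8%). Without cKO replicate 1 the number of lower members was 9, and the share of all genes called lower was 3.8%. In whole hearts, fewer cells of a type and less RNA per cell cannot be told apart.

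Among the higher members were the potassium channels Kcnc1 and Kcnj4, the sodium channel beta subunits Scn3b and Scn4b, the calcium channels Cacna1h and Cacna1a, and Hcn2. Among the lower members were Clcn1, Hcn4, Kcnj3, Cacna1g, Kcnv2, Kcnj2, Cacna2d1, Kcnd2, Kcnd3, Scn4a, Kcnj12, Cacna1c, Kcnip2 and Cacnb2, in order of their fold changes. Members too low to be tested in RNA included Cacna1e, Cacna2d3, Kcnd3os, Kcng1, Kcnh1, Kcnh7, Kcnj10 and Kcnk4. When DESeq2 was run on the same counts, 9 of the 23 no longer passed, and of these Cacna1a, Hcn2, Kcnv2, Kcnd2, Kcnd3, Scn4a, Kcnj12 and Cacnb2 had adjusted p-values between 0.0633 (Kcnj12) and 0.268 (Kcnv2).

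**Figure D2:**
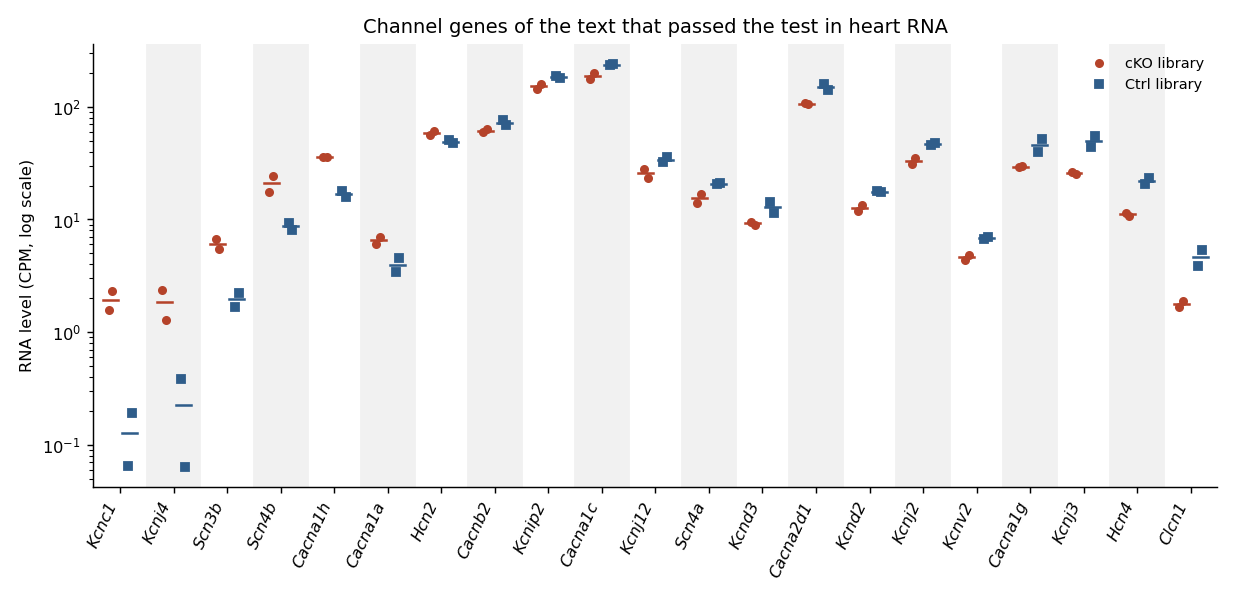
RNA level (CPM, log axis) of channel genes that passed the test in heart RNA, from the largest rise on the left to the largest fall on the right, with 1 point per library (cKO circles left, Ctrl squares right) and a line at each mean. The rises of Kcnc1 and Kcnj4 are steep but near the lower end of the axis, Scn4b and Cacna1h rose at intermediate levels, and the abundant Cacna1c, Cacna2d1 and Kcnip2 are lower in cKO hearts.

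The 250 bases before the transcription start are shown for 3 of these genes, 1 that rose (Scn4b) and 2 that fell (Hcn4 and Kcnj2) in both assays, because their RNA and footprints moved together. The sequences are RefSeq's on GRCm38.p6, all on the plus strand, read 5′ to 3′, and capitals mark every match to the GC box GGGCGG on either strand.
Scn4b, chr9:45138374-45138623: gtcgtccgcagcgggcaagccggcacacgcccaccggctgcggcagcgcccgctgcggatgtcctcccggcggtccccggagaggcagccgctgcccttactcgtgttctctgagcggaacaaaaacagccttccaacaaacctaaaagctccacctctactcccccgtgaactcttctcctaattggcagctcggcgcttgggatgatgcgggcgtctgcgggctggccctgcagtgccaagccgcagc
Hcn4, chr9:58822699-58822948: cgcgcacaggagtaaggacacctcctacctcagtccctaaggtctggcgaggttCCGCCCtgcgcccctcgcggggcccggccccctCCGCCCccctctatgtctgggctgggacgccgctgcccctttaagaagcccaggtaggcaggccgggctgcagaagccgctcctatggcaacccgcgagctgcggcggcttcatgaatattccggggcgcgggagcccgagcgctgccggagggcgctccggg
Kcnj2, chr11:111065914-111066163: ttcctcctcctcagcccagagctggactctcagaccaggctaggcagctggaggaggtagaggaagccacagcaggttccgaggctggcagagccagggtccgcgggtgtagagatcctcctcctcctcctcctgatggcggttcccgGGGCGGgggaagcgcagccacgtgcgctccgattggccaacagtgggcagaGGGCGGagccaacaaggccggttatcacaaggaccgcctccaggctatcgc
The GC box occurred 2 times before Hcn4, 2 times before Kcnj2 and 0 times before Scn4b. Over all 32851 such windows of RefSeq, 32.7% held it, and over the 97 windows that the table has for 69 of the channel genes of heart RNA, 44.3% did. The T-box half-site GGTGTGA, searched on both strands because T-box factors act in conduction tissue, was in none of the 3, in 3.33% of all windows and in 4.12% of the channel windows. G and C made up 66.0% of the Scn4b window, 71.2% of the Hcn4 window and 65.6% of the Kcnj2 window, against a median of 52.4% over all windows.

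The beta subunits of the sodium channels are single-pass proteins that bind the pore-forming alpha subunit and alter its gating and placement, and Scn3b and Scn4b were higher in cKO hearts in both assays. Scn3b had 6.71 and 5.49 CPM in cKO RNA, against 1.67 and 2.23 CPM in Ctrl RNA (log2 fold change 1.64, SE 0.24, adjusted p = 2.3e-04). Its footprints reached 3.40 and 2.43 CPM in cKO hearts, against 0.582 and 0.577 CPM in Ctrl hearts (log2 fold change 2.33, SE 0.34, adjusted p = 2.5e-04).

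Scn4b was at 17.6 and 24.3 CPM in cKO RNA, against 9.40 and 8.02 CPM in Ctrl RNA (log2 fold change 1.26, SE 0.16, adjusted p = 6.3e-05). Its footprints, at 6.97 and 9.58 CPM in cKO hearts against 5.41 and 4.31 CPM in Ctrl hearts, rose by 0.77 on the log2 scale (SE 0.19, adjusted p = 0.0126). The footprint call rested on 2 libraries: adjusted p was 0.123 without Ctrl replicate 2 (log2 fold change 0.61) and 0.165 without cKO replicate 2 (0.53). Scn2b, another beta subunit, was near the lower limit, with 0.735 ± 0.0576 CPM in cKO and 0.512 ± 0.0945 CPM in Ctrl RNA (SD, n = 2 each; log2 fold change 0.51, adjusted p = 0.558), and its 27 footprints were too few to be tested.

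Of the alpha subunits, which form the sodium pore, none passed upward in the heart. Scn4a, best known as the skeletal muscle sodium channel, fell to 14.1 and 16.7 CPM in cKO RNA, against 20.8 and 20.9 CPM in Ctrl RNA (log2 fold change -0.44, SE 0.11, adjusted p = 0.0175). Its footprints fell as well, with 16.9 and 17.7 CPM in cKO and 24.2 and 26.0 CPM in Ctrl hearts (log2 fold change -0.54, SE 0.11, adjusted p = 0.00286), and its RNA call was lost without cKO replicate 1 (-0.32, adjusted p = 0.206).

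Scn10a, known from sensory neurons and also studied in cardiac conduction, was called in footprints alone, with 1.70 and 1.15 CPM in cKO hearts against 3.24 and 2.76 CPM in Ctrl hearts (log2 fold change -1.06, SE 0.29, adjusted p = 0.0221). Its RNA value was -0.86 (SE 0.30, adjusted p = 0.0706). Without Ctrl replicate 1, Ctrl replicate 2 or cKO replicate 2, the footprint value was -0.94, -1.18 or -0.82, with adjusted p-values of 0.124, 0.0602 and 0.139. Of the 12 neural and Schwann cell markers, Th had 0 counts in heart RNA, the list's summed level was 13.1 to 16.3 CPM in cKO and 12.9 to 14.8 CPM in Ctrl RNA, and among the 5 tested Tubb3 rose while Dbh fell. In footprints the list summed to 14.8 to 19.0 CPM in cKO and 6.16 to 6.53 CPM in Ctrl hearts, with Tubb3 higher (log2 fold change 3.74) and Dbh lower (-2.19) among the 5 tested. The part of these markers in the Scn10a result was not tested. In RNA the alpha subunits Scn2a, Scn3a and Scn7a did not pass in either direction.

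Calcium channel genes moved in both directions. Cacna1c (chr6:118587240-119197384, GRCm38.p6), the L-type pore that couples the action potential to contraction, fell to 176.3 and 199.7 CPM in cKO RNA, against 235.5 and 239.9 CPM in Ctrl RNA (log2 fold change -0.34, SE 0.06, adjusted p = 0.00219). Its footprints fell to 174.2 and 169.5 CPM in cKO hearts, against 227.2 and 225.5 CPM in Ctrl hearts (-0.40, SE 0.08, adjusted p = 0.00209). Its partner Cacna2d1 had 109.0 and 105.3 CPM in cKO RNA, against 159.7 and 141.0 CPM in Ctrl RNA (-0.49, SE 0.07, adjusted p = 1.9e-04), and a footprint log2 fold change of -0.55 (SE 0.08, adjusted p = 1.8e-04). The groups did not overlap in either assay for either gene.

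Cacnb2, the main cardiac beta subunit of the L-type channel, was at 59.4 and 63.7 CPM in cKO RNA, against 76.7 and 68.6 CPM in Ctrl RNA (-0.24, SE 0.08, adjusted p = 0.0483). This call was lost when CPM were scaled by library totals (-0.16, adjusted p = 0.191) and without Ctrl replicate 1, cKO replicate 1 or cKO replicate 2 (-0.15, -0.19 and -0.29, adjusted p = 0.336, 0.268 and 0.0611). Its footprint value was -0.22 (adjusted p = 0.126), and -0.32 without Ctrl replicate 2, which passed (adjusted p = 0.0345). Cacna1d, the second L-type pore of the heart and prominent in the sinus node, was low, with 3.11 ± 0.102 CPM in cKO and 3.85 ± 1.30 CPM in Ctrl RNA (-0.30, adjusted p = 0.503), and Cacna1s, the skeletal muscle L-type pore, had a log2 fold change of -0.41 (adjusted p = 0.202).

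The T-type pores, which open at more negative voltages, moved apart. Cacna1h (chr17:25374285-25436334, GRCm38.p6) had 36.2 and 36.2 CPM in cKO RNA, against 18.0 and 15.9 CPM in Ctrl RNA, up by 1.09 on the log2 scale (SE 0.10, adjusted p = 3.0e-06). Cacna1g fell to 29.0 and 29.7 CPM in cKO RNA, against 40.0 and 51.9 CPM in Ctrl RNA (-0.65, SE 0.11, adjusted p = 8.4e-04). Cacna1h was thus below Cacna1g in every Ctrl library and above it in every cKO library on the CPM scale, which does not correct for transcript length. On the footprint scale per kb, Cacna1h had 3.08 CPM per kb in cKO and 1.48 CPM per kb in Ctrl hearts, and Cacna1g had 2.42 CPM per kb in cKO and 3.69 CPM per kb in Ctrl hearts. The footprint log2 fold changes were 1.05 for Cacna1h (SE 0.13, adjusted p = 3.9e-05) and -0.61 for Cacna1g (SE 0.11, adjusted p = 0.0014).

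Cacna1a, the P/Q-type pore known from nerve terminals, rose to 6.07 and 6.98 CPM in cKO RNA, against 3.41 and 4.52 CPM in Ctrl RNA (0.71, SE 0.20, adjusted p = 0.0266), and to 9.59 and 7.77 CPM of footprints in cKO hearts, against 4.87 and 4.37 CPM in Ctrl hearts (0.92, SE 0.18, adjusted p = 0.00198). Its RNA call was lost without Ctrl replicate 1, cKO replicate 1 or cKO replicate 2 (0.53, 0.81 and 0.61, adjusted p = 0.156, 0.0521 and 0.15). None of the other 6 auxiliary subunits tested in RNA, Cacna2d2, Cacnb1, Cacnb3, Cacnb4, Cacng6 and Cacng7, passed. Cacnb1 overlaps the ribosomal protein gene Rpl19, Cacna1c overlaps Dcp1b, Cacna1h overlaps Tpsg1, and Cacna1d overlaps Chdh and Dcp1a. Since no source used here states whether counting used strand, the counts of these channel genes are uncertain to that extent.

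The pacemaker channels, which open on hyperpolarisation and carry the diastolic inward current, went in different directions. Hcn4 (chr9:58822949-58863175, GRCm38.p6), the main sinus node form, fell to 11.5 and 10.7 CPM in cKO RNA, against 20.8 and 23.3 CPM in Ctrl RNA (log2 fold change -0.99, SE 0.12, adjusted p = 3.8e-05). Its footprints fell to 5.54 and 6.50 CPM in cKO hearts, against 9.27 and 11.8 CPM in Ctrl hearts (-0.82, SE 0.17, adjusted p = 0.00312), although adjusted p was 0.0558 without Ctrl replicate 2 (-0.63).

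Hcn2, the most abundant HCN channel of these hearts in footprints per kb (14.1 in cKO, 13.7 in Ctrl hearts), was higher in cKO RNA, at 56.6 and 61.7 CPM against 50.4 and 47.4 CPM in Ctrl RNA (0.27, SE 0.08, adjusted p = 0.0266). That call was lost without Ctrl replicate 2 (0.23, adjusted p = 0.125) and without cKO replicate 2 (0.21, adjusted p = 0.197), and footprints gave 0.03 (SE 0.10, adjusted p = 0.883). Hcn3 had too few counts for more than a wide estimate (0.02, SE 0.65). The sinus node is a small part of a whole heart, so its cells enter these values only in proportion to their RNA. Of the 10 atrial markers, Nppa, Pam, Clu and Bmp10 rose and Stard10 and Nr2f2 fell, where 8.16% of all genes rose and 6.26% fell. Myl7 and Myl4, among the markers that did not pass, had 40.0 and 56.6 CPM in cKO RNA against 40.0 and 58.4 CPM in Ctrl RNA. The list's summed level was 2243 to 2578 CPM in cKO and 1218 to 1255 CPM in Ctrl RNA. In footprints it was 5543 to 6813 CPM in cKO and 1819 to 1994 CPM in Ctrl hearts. There 2 of the 10 markers rose and 1 fell, where 9.11% of all genes rose and 7.33% fell. The median log2 fold change of the markers in footprints was 0.15. The part of these markers in the channel values was not tested.

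Voltage-gated potassium channels repolarise the action potential. In mouse ventricle the fast transient outward current is carried by Kcnd2 and Kcnd3 with Kcnip2, and all 3 were lower in cKO RNA. Kcnd2 had 11.8 and 13.5 CPM in cKO RNA, against 17.9 and 17.5 CPM in Ctrl RNA (-0.49, SE 0.12, adjusted p = 0.0116), and its footprints fell by 0.55 on the log2 scale (SE 0.13, adjusted p = 0.00757). Kcnip2 had 144.3 and 160.9 CPM in cKO RNA, against 187.9 and 180.5 CPM in Ctrl RNA (-0.27, SE 0.06, adjusted p = 0.0104), and Kcnd3 9.49 and 8.98 CPM in cKO RNA, against 14.4 and 11.3 CPM in Ctrl RNA (-0.48, SE 0.15, adjusted p = 0.0393). For none of the 3 did the groups overlap in RNA. The footprint values of Kcnip2 (-0.17, SE 0.09, adjusted p = 0.209) and Kcnd3 (-0.36, SE 0.30, adjusted p = 0.486) did not pass.

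These falls were close to the threshold. Without cKO replicate 1, Kcnd2 gave -0.39 in RNA (adjusted p = 0.136) and -0.54 in footprints (adjusted p = 0.0515), and Kcnip2 gave -0.20 (adjusted p = 0.118). Kcnd3 lost its call with library totals (-0.40, adjusted p = 0.0805) and without Ctrl replicate 1, cKO replicate 1 or cKO replicate 2 (-0.29, -0.52 and -0.44, adjusted p = 0.318, 0.113 and 0.157), and Kcnip2 with library totals (-0.19, adjusted p = 0.06). Kcnd3 overlaps the noncoding Kcnd3os, whose 26 counts were too few to be tested.

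Further repolarising subunits were called in at most 1 of the assays. Kcna5, which carries a slower outward current of mouse myocytes, had 69.8 ± 0.317 CPM in cKO RNA, against 74.5 ± 12.1 CPM in Ctrl RNA (SD, n = 2 each), and did not pass (log2 fold change -0.09, adjusted p = 0.558). Kcna4, the pore of the slow transient outward current, was at 1.38 ± 0.238 CPM in cKO and 1.25 ± 0.508 CPM in Ctrl RNA. Kcnq1 and Kcne1, the slow delayed rectifier pair, did not pass in either assay, with log2 fold changes between -0.09 and 0.22. Kcnh2, the rapid delayed rectifier known as ERG, was called in footprints, at 30.2 and 27.0 CPM in cKO hearts against 34.4 and 40.4 CPM in Ctrl hearts (-0.39, SE 0.11, adjusted p = 0.0218), while its RNA gave -0.19 (SE 0.07, adjusted p = 0.111). The footprint call of Kcnh2 was lost with library totals (-0.32, adjusted p = 0.0573), without Ctrl replicate 2 (-0.26, adjusted p = 0.162) and without cKO replicate 2 (-0.31, adjusted p = 0.191), and without cKO replicate 2 its RNA passed (-0.28, adjusted p = 0.0452).

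The largest fold change of any member in heart RNA was that of Kcnc1, a fast-gating channel of neurons and muscle, with 27 and 36 counts or 1.56 and 2.33 CPM in cKO hearts, against 1 and 3 counts or 0.0644 and 0.191 CPM in Ctrl hearts (3.84, SE 0.58, adjusted p = 3.3e-04). Without Ctrl replicate 2 the value was 4.75 (adjusted p = 2.7e-05). The frame listed for Kcnc1 in the footprint table had 0 footprints in the 4 libraries together. Kcnv2, a silent subunit that joins other pores, was lower in cKO RNA, with 4.40 and 4.85 CPM against 6.76 and 6.94 CPM in Ctrl RNA (-0.57, SE 0.18, adjusted p = 0.0434). The Kcnv2 call did not survive library totals (-0.49, adjusted p = 0.0754) or leaving out Ctrl replicate 1 (-0.59, adjusted p = 0.0897), Ctrl replicate 2 (-0.55, adjusted p = 0.111), cKO replicate 1 (-0.50, adjusted p = 0.219) or cKO replicate 2 (-0.64, adjusted p = 0.0912).

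Inward rectifiers hold the resting potential near that of potassium. Kcnj2, the main pore of the cardiac resting current, fell to 30.9 and 35.0 CPM in cKO RNA, against 45.9 and 47.5 CPM in Ctrl RNA (-0.51, SE 0.09, adjusted p = 9.2e-04). Its footprints fell to 48.5 and 40.2 CPM in cKO hearts, against 58.7 and 63.3 CPM in Ctrl hearts (-0.46, SE 0.10, adjusted p = 0.00564), with adjusted p = 0.0517 without Ctrl replicate 2 (-0.40) and 0.114 without cKO replicate 2 (-0.33). Kcnj12, which joins Kcnj2 in that current, had 28.1 and 23.2 CPM in cKO RNA, against 32.4 and 35.7 CPM in Ctrl RNA (-0.40, SE 0.10, adjusted p = 0.0164), lost without Ctrl replicate 2 (-0.33, adjusted p = 0.0514) and without cKO replicate 2 (-0.27, adjusted p = 0.174). Its footprints gave -0.27 (SE 0.14, adjusted p = 0.216).

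Kcnj4, the third member of the same subfamily, went the other way from a low level, with 41 and 20 counts or 2.37 and 1.29 CPM in cKO RNA, against 6 and 1 counts or 0.386 and 0.0637 CPM in Ctrl RNA (3.0, SE 0.59, adjusted p = 0.0026). Its 23 and 16 footprints in cKO hearts, against 4 and 2 in Ctrl hearts, gave 2.24 (SE 0.72, adjusted p = 0.044). Leaving out Ctrl replicate 1 moved the RNA value to 4.71 and the footprint value to 3.03, and leaving out Ctrl replicate 2 moved them to 2.24 and 1.62. The footprint call was lost with a filter of 1 count (2.23, adjusted p = 0.0619), with DESeq2 (2.24, adjusted p = 0.165), and without any 1 of the 4 libraries (adjusted p = 0.0689 without Ctrl replicate 1, 0.244 without Ctrl replicate 2, 0.201 without cKO replicate 1 and 0.074 without cKO replicate 2, the last pair at 2.06 and 2.39).

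Kcnj3 and Kcnj5 together form the acetylcholine-activated channel of atrial and nodal cells. Kcnj3 (chr2:55411798-55598145, GRCm38.p6) fell to 26.4 and 25.1 CPM in cKO RNA, against 43.9 and 55.1 CPM in Ctrl RNA (-0.94, SE 0.10, adjusted p = 2.2e-05), and to 4.37 and 4.33 CPM of footprints in cKO hearts, against 7.65 and 8.11 CPM in Ctrl hearts (-0.86, SE 0.17, adjusted p = 0.00252). Kcnj5 had 95.0 and 90.7 CPM in cKO RNA, against 95.4 and 96.3 CPM in Ctrl RNA (-0.04, SE 0.06, adjusted p = 0.717), and footprints at 0.02 (SE 0.10, adjusted p = 0.92). The partners therefore differed in their response, although the difference between them was not tested. Kcnj11 and Kcnj8, the pores of the ATP-sensitive channels of muscle and vessel, had RNA log2 fold changes of -0.01 and -0.18 (adjusted p = 0.968 and 0.135). Footprints of Kcnj11 gave -0.28 (SE 0.11, adjusted p = 0.0968), a value that passed with a filter of 1 count (-0.28, adjusted p = 0.0421).

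Kcnk3, which had the highest mean footprint density of the channel genes in both groups, was called in footprints, with 98.7 and 91.8 CPM in cKO hearts against 116.6 and 135.3 CPM in Ctrl hearts (-0.40, SE 0.09, adjusted p = 0.0064). In RNA it had 225.1 and 243.2 CPM in cKO hearts, against 251.4 and 292.5 CPM in Ctrl hearts (-0.22, SE 0.07, adjusted p = 0.0534). That RNA value passed with a filter of 1 count (-0.22, adjusted p = 0.0082), without Ctrl replicate 1 (-0.32, adjusted p = 0.00293) and without cKO replicate 2 (-0.27, adjusted p = 0.0405), and the footprint call was lost without Ctrl replicate 2 (-0.29, adjusted p = 0.0554) and without cKO replicate 2 (-0.35, adjusted p = 0.0711). Kcnk2, the stretch-sensitive TREK-1, was at 2.55 ± 0.416 CPM in cKO and 3.17 ± 0.473 CPM in Ctrl RNA (-0.32, adjusted p = 0.478). None of the 7 calcium- or sodium-activated potassium channels tested in RNA passed, among them Kcnn2, known from atrial muscle, at 9.38 ± 1.38 CPM in cKO and 9.86 ± 1.80 CPM in Ctrl RNA (SD, n = 2 each).

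Of the chloride channels, Clcn1, the resting chloride channel of skeletal muscle, fell most, with 1.68 and 1.87 CPM in cKO RNA against 3.86 and 5.41 CPM in Ctrl RNA (-1.38, SE 0.26, adjusted p = 0.00222). Its footprints were at 0.449 and 0.837 CPM in cKO hearts, against 2.62 and 2.55 CPM in Ctrl hearts (-2.02, SE 0.36, adjusted p = 0.00126). Clcn1 overlaps Fam131b. The vesicular exchangers Clcn3 to Clcn7 did not pass in RNA. The skeletal muscle markers had a summed level of 2748 to 3051 CPM in cKO and 1787 to 1912 CPM in Ctrl RNA, with Acta1 and Mylpf higher among the 4 tested. In footprints the sum was 6474 to 6564 CPM in cKO and 4108 to 5010 CPM in Ctrl hearts, and of the 8 markers tested 3 rose and 0 fell. Over all genes, 8.16% rose in RNA, and 9.11% rose and 7.33% fell in footprints. The part of these markers in the values of Clcn1 and Scn4a was not tested.

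In footprints 76 of the 87 members were tested and 19 passed, 7 higher and 12 lower in cKO hearts. This is 25.0% of the tested members, against 16.4% of all genes tested. Called changes of at least 2-fold were found in 7 members, and in 3.0% of all genes. Without Ctrl replicate 2 or cKO replicate 2, 4 members were higher, and 6.93% and 6.56% of all genes. By direction, 9.21% were higher, against 9.11% of all genes, and 15.8% were lower, against 7.33% of all genes. The median log2 fold change was -0.14 over the tested members and 0.0 over all genes. The groups did not overlap in 40 members (52.6%), against 55.9% of all genes. Among the 74 members tested in both assays, 15 were called in both, 6 in RNA alone, 3 in footprints alone and 50 in neither, and none was called in opposite directions. The same counts were not made over all genes, so they do not set the channel genes apart. The 6 that were higher in both included Cacna1a, Cacna1h, Kcnj4, Scn3b and Scn4b (75.0% of the 8 higher in RNA and 85.7% of the 7 higher in footprints). The 9 that were lower in both were Cacna1c, Cacna1g, Cacna2d1, Clcn1, Hcn4, Kcnd2, Kcnj2, Kcnj3 and Scn4a (60.0% of the 15 lower in RNA and 75.0% of the 12 lower in footprints). The totals of 8, 7 and 15 include members that were not tested in the other assay.

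**Figure D3:**
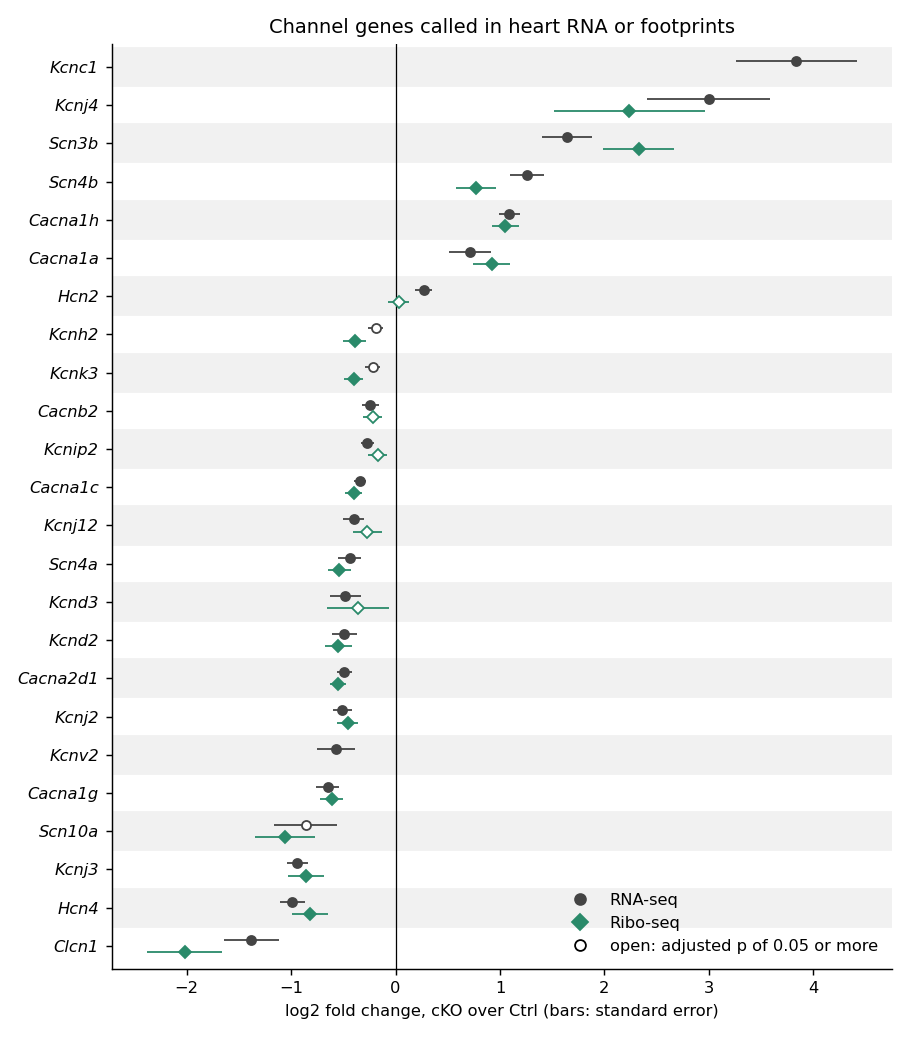
Log2 fold change (cKO over Ctrl, bars are standard errors) of channel genes called in heart RNA (circles) or in footprints (diamonds), with open symbols where the adjusted p was 0.05 or more and no symbol where a gene was not tested. The symbols of a gene mostly lie side by side, with Clcn1 at the bottom (-1.38 in RNA, -2.02 in footprints) and Kcnc1, which has no footprint symbol, at the top (3.84 in RNA).

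Translational efficiency, the change in footprints beyond that in RNA, was tested as an interaction of genotype and assay over the 8 heart libraries. None of the 74 members passed, against 0.126% of all genes tested (16 of 12662), and DESeq2 called 0 members as well. At an unadjusted p under 0.05 there were 5 members (6.76%), against 1227 of all genes (9.69%). Among these, picked out by that p, were Clcn5, an endosomal exchanger (0.62, SE 0.24), Kcna7, a potassium channel of muscle (-0.70, SE 0.29), and Kcnj11 (-0.29, SE 0.13), with adjusted p-values of 0.428, 0.45 and 0.484. Over the 74 members the interaction had a median of -0.06, against -0.02 over all genes.

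**Figure D4:**
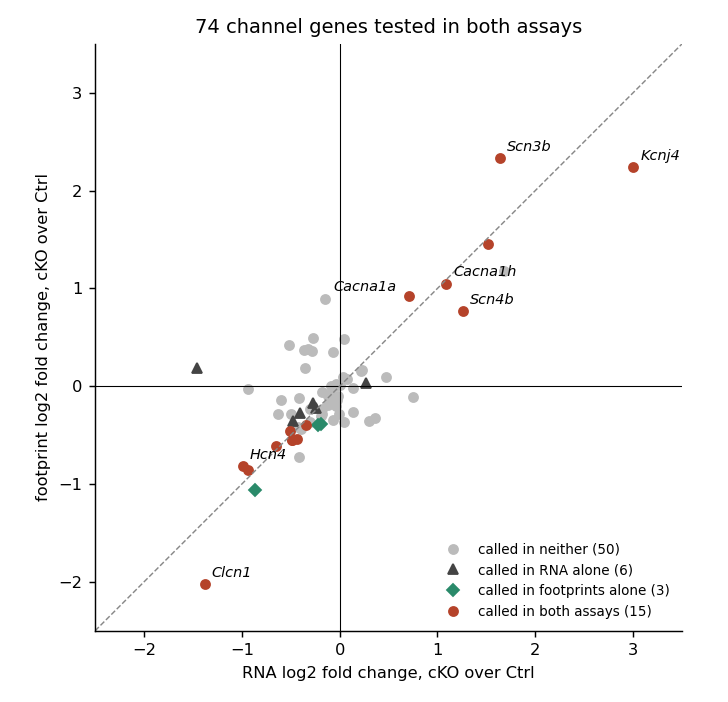
Log2 fold change in footprints (vertical axis) against that in RNA (horizontal axis), cKO over Ctrl, for the 74 channel genes tested in both assays, with the dashed line at equal change and symbols by where a gene was called. The 15 genes called in both assays lie below 0 on both axes or above 0 on both axes, with Clcn1 at the lower left and Kcnj4 farthest to the right.

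Footprints on several potassium channel genes lay partly outside the main frame. For each gene the frame with the most footprints was used, and 28 of the 87 members had more than 1 frame. The kept frame held 48.4% of the footprints of Kcnn2, 63.6% of those of Kcna4, 65.5% of those of Kcnj12, 76.2% of those of Kcnj5, 78.3% of those of Kcnj3 and 87.2% of those of Kcnj11. In Kcnj12 a frame of 24 codons that ends before the 529 codons of the main frame held 199 and 209 footprints in cKO hearts, against 141 and 221 in Ctrl hearts, which is 31.2% of the gene's footprints in cKO and 29.9% in Ctrl hearts. Kcnj5 had such upstream frames of 25 and 11 codons, with 13.7% and 7.77% of its footprints in cKO hearts, against 17.5% and 8.42% in Ctrl hearts. Kcnj3 had upstream frames of 21 and 10 codons with 11.5% and 11.0% in cKO and 10.5% and 10.5% in Ctrl hearts. These shares were not tested between genotypes. For Cacnb1 the kept frame had only 30 codons and 27 footprints, and Clcn3 had 29 footprints in all beside 602 to 699 RNA counts per library, and no footprint result of either gene is given.

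The working group of 33 canonical cardiac channel genes, the pore and partner subunits of the named cardiac currents, held 32 that were tested in RNA, of which 5 rose and 12 fell, where 8.16% of all genes rose and 6.26% fell. Its summed level was 1892 to 1981 CPM in cKO and 2178 to 2191 CPM in Ctrl RNA, and Kcne2 had 0 counts. In footprints 4 of 31 rose and 9 fell (9.11% and 7.33% of all genes), with 1147 to 1173 CPM in cKO and 1380 to 1412 CPM in Ctrl hearts. Genes that work with the channels were read from lists too. Of 17 calcium and sodium cycling genes tested in RNA, 2 rose and 6 fell, led by the calcium pump Atp2a2 (-0.36, adjusted p = 1.3e-05), the calcium release channel Ryr2 (-0.34, adjusted p = 1.4e-04) and the pump regulator Pln (-0.35, adjusted p = 1.6e-04), with the calcium buffer Casq2 higher (0.27, adjusted p = 0.00167). Of 10 gap junction and intercalated disc genes tested, 0 rose and 2 fell, the desmosome genes Dsp (-0.21, adjusted p = 0.0124) and Dsg2 (-0.23, adjusted p = 0.0448).

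Of 22 channel anchors and regulators tested, 4 rose and 3 fell, led by Lrrc10 (0.56, adjusted p = 1.3e-05), a cardiac protein that binds the L-type channel, and Pdzd3 (1.55, adjusted p = 3.6e-05), followed by Bves (0.27, adjusted p = 0.00793) and Gpd1l (0.25, adjusted p = 0.0155). Of 16 conduction and channel transcription factors tested, 1 rose and 3 fell: Hopx (-0.35, adjusted p = 0.00184), Tbx5 (-0.56, adjusted p = 0.00197) and Tbx3 (-0.47, adjusted p = 0.00636) were lower, and Gata4 (0.20, adjusted p = 0.0497) was higher. Of 16 TRP and mechanosensitive channels tested, 1 rose (Tmem87a, 0.41, adjusted p = 0.0206) and 2 fell (Ano10, -0.42, adjusted p = 0.00309, and Trpm7, -0.38, adjusted p = 0.0106). The counts of these lists are to be read against all genes tested in heart RNA, of which 8.16% rose and 6.26% fell.

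Markers of the cell types in a heart were read in the same RNA, where 8.16% of all genes rose and 6.26% fell. Of 9 ventricular cardiomyocyte markers 0 rose and 5 fell, with a summed level of 52100 to 52390 CPM in cKO and 56480 to 57050 CPM in Ctrl RNA. Of 8 endothelial markers 0 rose and 3 fell (1893 to 1957 CPM in cKO, 2198 to 2214 CPM in Ctrl RNA), and of 10 pericyte and smooth muscle markers 0 rose and 2 fell (1012 to 1034 CPM in cKO, 1161 to 1172 CPM in Ctrl RNA). None of the 8 fibroblast and 8 macrophage markers passed, with sums of 2945 to 3109 and 716.7 to 791.1 CPM in cKO, against 2758 to 3006 and 675.3 to 703.3 CPM in Ctrl RNA. Of 6 erythroid markers 3 rose (1594 to 2495 CPM in cKO, 1457 to 1591 CPM in Ctrl RNA). Their part in the channel values was not tested.

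In H9C2 cells 83 genes were members, and 59 symbols were members both there and in heart RNA. Of the 32 canonical cardiac channel genes in the rat table, 11 were listed at 0 in all 6 libraries, among them Hcn4, Kcnj2, Kcnj3 and Scn4b, and the heart markers Ryr2, Myl2 and Myl3 were at 0 as well. No source used here says how these counts were made, so a listed 0 may not mean that no read was found. Mettl1 had 4.28, 4.72 and 3.75 CPM in null cells, against 16.6, 15.6 and 16.2 CPM in WT cells (log2 fold change -1.93, SE 0.11, adjusted p = 1.1e-05). Of the 83 members 69 were tested and 31 passed, 26 higher and 5 lower in null cells. That is 44.9% of the tested members, against 25.1% of all genes tested. Called changes of at least 2-fold were found in 14 members, and in 4.81% of all genes. By direction, 37.7% were higher, against 13.6% of all genes, and 7.25% were lower, against 11.5% of all genes. The median log2 fold change was 0.41 over the tested members and 0.0 over all genes. The groups did not overlap in 38 members (55.1%), against 42.6% of all genes. Without WT replicate 1, null replicate 1 or null replicate 3, 16, 17 and 17 members were higher (9.74%, 9.41% and 9.1% of all genes in the same fits), and without WT replicate 1, null replicate 1, null replicate 2 or null replicate 3, 3, 3, 2 and 2 were lower (6.93%, 7.04%, 7.45% and 6.85% of all genes).

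**Figure D5:**
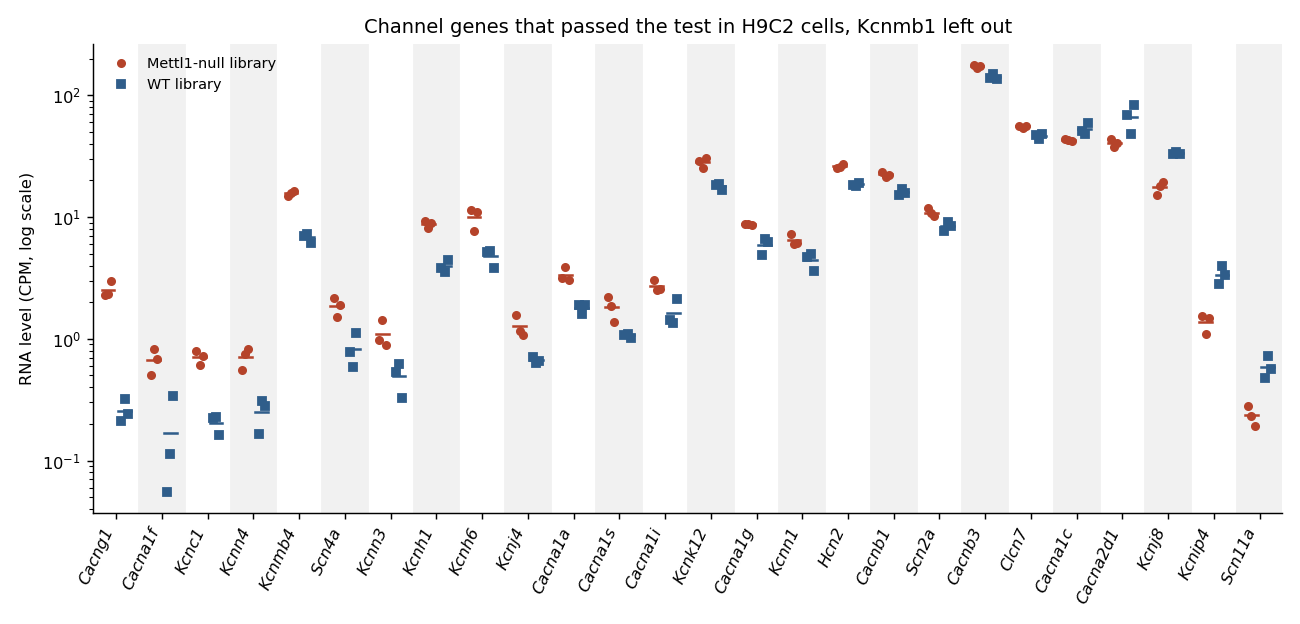
RNA level (CPM, log axis) in H9C2 cells of channel genes that passed the test, from the largest rise on the left to the largest fall on the right, with 1 point per library (Mettl1-null circles left, WT squares right) and a line at each mean. Kcnmb1 is left out because its WT libraries are at 0. Cacng1 has the widest gap between groups, and Cacnb3, with means of 172.9 CPM in null and 141.1 CPM in WT cells, lies near the top of the axis.

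Sodium channel pores moved both ways in H9C2. Scn4a had 2.15, 1.51 and 1.89 CPM in null cells, against 0.778, 0.592 and 1.11 CPM in WT cells (1.16, SE 0.27, adjusted p = 0.0148), and Scn2a, best known from brain, rose by 0.37 on the log2 scale (SE 0.11, adjusted p = 0.0362). Scn11a, a channel of sensory neurons, fell, with 0.283, 0.233 and 0.192 CPM in null cells, against 0.478, 0.729 and 0.566 CPM in WT cells (-1.32, SE 0.38, adjusted p = 0.0341). For each of these genes every null library lay on one side of every WT library.

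Several of these calls depended on single libraries. Scn4a had adjusted p = 0.0572 without WT replicate 1 (1.12), 0.0641 without null replicate 1 (1.04) and 0.0539 without null replicate 3 (1.14). Scn2a lost its call with a filter of 1 count (0.36, adjusted p = 0.0509) and without WT replicate 1, WT replicate 3, null replicate 1, null replicate 2 or null replicate 3 (0.31, 0.36, 0.30, 0.38 and 0.42, adjusted p = 0.127, 0.0553, 0.131, 0.0882 and 0.0573). Scn11a lost it without WT replicate 2, WT replicate 3, null replicate 1, null replicate 2 or null replicate 3 (-1.14, -1.36, -1.47, -1.31 and -1.19, adjusted p = 0.0903, 0.0502, 0.059, 0.0896 and 0.103).

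Of the 7 calcium channel pores tested, 5 were higher in null cells and Cacna1c was lower. Cacna1a had 3.18, 3.88 and 3.05 CPM in null cells, against 1.88, 1.61 and 1.88 CPM in WT cells (0.91, SE 0.16, adjusted p = 0.00362). Cacna1g had 8.85, 8.72 and 8.66 CPM in null cells, against 4.85, 6.60 and 6.20 CPM in WT cells (0.57, SE 0.13, adjusted p = 0.0124). Cacna1c had 43.5, 43.1 and 42.2 CPM in null cells, against 51.2, 47.8 and 59.2 CPM in WT cells (-0.30, SE 0.08, adjusted p = 0.0279), and its partner Cacna2d1 had 43.5, 37.4 and 40.4 CPM in null cells, against 68.5, 48.0 and 82.6 CPM in WT cells (-0.71, SE 0.17, adjusted p = 0.0155). Cacng1, the gamma subunit of the skeletal muscle calcium channel, rose to 2.30, 2.32 and 2.98 CPM in null cells, against 0.211, 0.319 and 0.239 CPM in WT cells (3.30, SE 0.25, adjusted p = 4.4e-05). Its pore partner Cacna1s rose by less (0.76, SE 0.22, adjusted p = 0.0351), as did the beta subunits Cacnb1 (0.49, SE 0.08, adjusted p = 0.0023) and Cacnb3 (0.29, SE 0.05, adjusted p = 0.00462). Cacna1f, a retinal L-type pore (1.98, SE 0.60, adjusted p = 0.0439), and the T-type Cacna1i (0.72, SE 0.21, adjusted p = 0.0354) were the others that rose.

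The calcium channel calls near the threshold were lost when libraries were left out. Cacna1c was at adjusted p = 0.0584 with library totals (-0.26), and at 0.0672, 0.0788, 0.0843 and 0.102 without WT replicate 1 (-0.32), null replicate 1 (-0.31), null replicate 2 (-0.30) and null replicate 3 (-0.28). Cacna2d1 was at 0.0593, 0.0673 and 0.0588 without WT replicate 1 (-0.69), null replicate 2 (-0.66) and null replicate 3 (-0.71). Cacna1i was at 0.118, 0.0744, 0.123, 0.0751 and 0.08 without WT replicate 1 (0.63), WT replicate 2 (0.61), null replicate 1 (0.63), null replicate 2 (0.77) and null replicate 3 (0.77). Cacna1s was at 0.0928, 0.053, 0.0639, 0.132 and 0.102 without WT replicate 1 (0.77), WT replicate 2 (0.79), WT replicate 3 (0.73), null replicate 1 (0.60) and null replicate 2 (0.74). Cacna1f, with 48, 78 and 64 counts in null cells against 5, 10 and 31 in WT cells, was at 0.0649 with a filter of 1 count (1.97), at 0.0953, 0.0768, 0.0746, 0.138 and 0.109 without WT replicate 1 (1.56), WT replicate 2 (1.76), null replicate 1 (2.15), null replicate 2 (1.80) and null replicate 3 (1.96), and moved to 2.96 without WT replicate 3 (adjusted p = 0.00401).

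Among potassium channels, the ATP-sensitive pore Kcnj8 fell to 15.2, 18.0 and 19.3 CPM in null cells, against 32.8, 34.4 and 33.1 CPM in WT cells (-0.93, SE 0.09, adjusted p = 1.9e-04). Kcnip4, a partner of transient outward channels, fell to 1.53, 1.10 and 1.47 CPM in null cells, against 2.83, 3.94 and 3.35 CPM in WT cells (-1.30, SE 0.19, adjusted p = 0.00162). Kcnip3, another such partner, had 18.1 to 19.2 CPM in null and 19.9 to 22.7 CPM in WT cells and did not pass in edgeR (-0.22, adjusted p = 0.0669), while DESeq2 gave an adjusted p of 0.0402. Kcnmb4, an auxiliary subunit of the large-conductance calcium-activated channel, rose to 15.0, 15.9 and 16.3 CPM in null cells, against 7.04, 7.24 and 6.14 CPM in WT cells (1.21, SE 0.10, adjusted p = 6.8e-05). Kcnmb1, the smooth muscle form of that subunit, had 15, 19 and 22 counts in null cells and was listed at 0 in the 3 WT libraries (adjusted p = 0.00562), and no fold is given because a listed 0 may not mean that no read was found.

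The pores that rose included Kcnh1 (9.36, 8.08 and 8.88 CPM in null cells, against 3.84, 3.55 and 4.46 CPM in WT cells; 1.15, SE 0.12, adjusted p = 3.0e-04), a channel of the ether-a-go-go family. Its relative Kcnh6 (1.07, SE 0.18, adjusted p = 0.00352) and the neuronal Kcnc1 (1.79, SE 0.35, adjusted p = 0.0065) rose too. Of the 4 calcium- or sodium-activated channels tested, Kcnn4 (1.49, adjusted p = 0.0205), Kcnn3 (1.15, adjusted p = 0.0358) and Kcnn1 (0.56, adjusted p = 0.0237) rose, and Kcnt1 did not pass in edgeR (0.64, adjusted p = 0.0521) but did in DESeq2 (adjusted p = 0.0366). The inward rectifier Kcnj4 (0.92, SE 0.24, adjusted p = 0.024), the tandem-pore Kcnk12 (0.65, SE 0.09, adjusted p = 9.4e-04) and the pacemaker gene Hcn2 (0.49, SE 0.07, adjusted p = 0.00105) were higher as well.

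Some of these were again near the threshold. Kcnj4 was at adjusted p = 0.0573, 0.101 and 0.055 without WT replicate 1 (0.97), null replicate 1 (0.75) and null replicate 2 (0.98). Kcnn4 was at 0.0593, 0.0714 and 0.0811 without WT replicate 1 (1.26), null replicate 2 (1.44) and null replicate 3 (1.37). Kcnn3 was at 0.0841, 0.0688, 0.0739, 0.14 and 0.06 without WT replicate 1 (1.20), WT replicate 3 (0.91), null replicate 1 (1.22), null replicate 2 (0.91) and null replicate 3 (1.27). Kcnn1 was at 0.0576, 0.093, 0.0511 and 0.06 without WT replicate 1 (0.60), null replicate 1 (0.47), null replicate 2 (0.60) and null replicate 3 (0.59).

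Canonical cardiac channel genes that were tested in H9C2 without passing were Cacnb2 (-0.22, adjusted p = 0.135), Cacna1d (1.20, adjusted p = 0.404), Kcnd3 (0.61, adjusted p = 0.27), Kcnh2 (-0.11, adjusted p = 0.584), Kcne2 (0.22, adjusted p = 0.294), Kcna4 (0.06), Kcnk2 (0.32) and Kcnq1 (-0.67), the last 3 at means under 1 CPM in both groups. Among all genes tested in H9C2 13.6% rose and 11.5% fell, and the counts of the short lists that follow are to be read against these shares. Of the 14 TRP and mechanosensitive channels tested, 6 rose and 0 fell, led by Trpc6 (1.32, adjusted p = 1.5e-04). Of 19 channel anchors and regulators 3 rose and 6 fell, led by the sodium channel regulator Fgf13 (-0.55, adjusted p = 5.2e-04) and Abcc9, the regulatory partner of Kcnj8 and Kcnj11 (-0.49, adjusted p = 0.00147). Of 12 cycling genes 4 rose and 4 fell, of 7 gap junction and disc genes 0 rose and 2 fell, and of 12 transcription factors 3 rose and 1 fell. The myoblast markers had summed levels of 597.8 to 627.0 CPM in null and 426.2 to 472.7 CPM in WT cells, with Myod1, Des, Cdh15, Chrna1 and Mymk higher and Myog lower, and their part in the channel values was not tested.

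Heart and H9C2 shared 48 members that were tested in both RNA tables. The 5 that were higher in both included Cacna1a, Hcn2, Kcnc1 and Kcnj4 (62.5% of the 8 higher in heart and 19.2% of the 26 higher in H9C2). Cacna1c and Cacna2d1 were lower in both (13.3% of the 15 lower in heart and 40.0% of the 5 lower in H9C2). The totals of 8, 26, 15 and 5 include members that were not tested in the other table, which lowers these shares. Cacna1g and Scn4a were lower in cKO hearts and higher in null H9C2 cells. Cacna1h, which rose in the heart, was not a member in H9C2. The tables come from different species and were normalized separately, and the differences between their fold changes were not tested. Calls shared by heart and H9C2 were not counted over all genes.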

How the data were processed

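The authors deposited raw counts: counts per gene for heart RNA and H9C2 RNA, and footprint counts per reading frame for heart Ribo-seq. Per the submitters' processing notes, cutadapt, STAR, HISAT2, featureCounts, StringTie, DESeq2, Bowtie, Bowtie2, GRCm38 and Rnor_6.0 were used, with neither roles, versions nor strand settings given there. Mouse IDs were matched to symbols through the reference table without their version suffix (55141 of 55487 matched).

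Each footprint gene was represented by its frame with the most footprints, and these frames held 98.914% of all footprints. Each table was fitted whole in edgeR 4.0.16 (R 4.3.3) with TMM factors, its default expression filter and the quasi-likelihood test, adjusted by the Benjamini-Hochberg method, and genes with an adjusted p under 0.05 were called. Translational efficiency was the genotype by assay interaction over the 8 heart libraries. Library sizes limit only rare genes, and counting error is part of the fitted spread. The scripts were tested on simulated data.

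The members and gene lists (canonical cardiac channels, cycling partners, gap junction and disc, anchors and regulators, transcription factors, TRP and mechanosensitive channels, and markers of cell types) were chosen with earlier results of these data known. The text names up to 30 called members per comparison, those with the largest absolute log2 fold changes, the canonical cardiac members, and up to 4 genes of each other list with the smallest adjusted p (more where all those called are named). For translational efficiency it names only genes with an unadjusted p under 0.05, a choice made after the values were seen. Alternatives were DESeq2 1.42.0, relative-log-expression factors, library totals, a filter of 1 count, footprints summed over frames, the longest frame, a replicate block and leaving out each library. Some genes stay in every fit and count but are not reported here by name.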

Additional observations from a re-analysis of the deposited data

Results flagged for a closer look

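The changes of 2 channel genes ran in opposite directions in the heart and in H9C2 cells, with every library on its own side of the comparison group in both tables. Cacna1g, the T-type calcium pore, had a log2 fold change of -0.65 in cKO over Ctrl heart RNA and 0.57 in null over WT H9C2 RNA. Scn4a, the skeletal muscle sodium pore, had -0.44 in cKO over Ctrl heart RNA and 1.16 in null over WT H9C2 RNA. The heart RNA call of Scn4a was lost with DESeq2 (adjusted p = 0.105). Its H9C2 call was lost without WT replicate 1, null replicate 1 or null replicate 3. The difference between the tables was not tested for either gene, and species, tissue and normalization differ between them.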

How the results depend on the processing

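The number of channel genes lower in cKO heart RNA was 15, and 8 with DESeq2; leaving out 1 library at a time gave 9 to 14 lower, with 9 without cKO replicate 1, and 7 to 8 higher. In footprints, leaving out 1 library gave 4 to 6 higher, with 4 without Ctrl replicate 2 and 4 without cKO replicate 2, and 8 to 13 lower. In H9C2 it gave 16 to 26 higher and 2 to 5 lower, beside 9.1% to 15.8% and 6.85% to 14.3% of all genes. Over all heart RNA genes, 6.26% were lower in the main fit and 3.24% with DESeq2. When a heart library was left out, the shares of all genes called in RNA and in footprints were smaller too, in both directions. No member passed for translational efficiency under any alternative run. The same-numbered libraries did not deviate together (correlations of 0.009 in heart RNA, -0.04 in footprints, and 0.007, 0.048 and -0.053 in H9C2), and not every H9C2 library correlated best with its own number. With a replicate block, 10 members were higher and 19 lower in heart RNA (all genes 1455 and 1290, against 1150 and 882 without it), 7 and 13 in footprints (1472 and 1255, against 1231 and 990), and 23 and 4 in H9C2 (1748 and 1399, against 2014 and 1706).

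Signs turned only for members that had not passed the test. With library totals, heart RNA gave 0.08 for Kcnj11, 0.04 for Kcnj5 and 0.01 for Kcnn2, and footprints gave 0.05 for Kcna4 and 0.01 for Kcnj8. Footprints summed over frames gave 0.31 for Kcna4 and -0.06 for Kcnj5, and the replicate block gave 0.02 for Kcna4 footprints. Leaving out 1 library at a time, heart RNA ranged from -0.61 to 0.09 for Cacna1d, -0.23 to 0.62 for Kcna4, -0.25 to 0.08 for Kcna5 and -0.24 to 0.13 for Kcnn2. Footprints ranged from -1.12 to 0.29 for Cacna1d, -0.04 to 0.09 for Hcn2, -0.63 to 0.81 for Kcna4, -0.08 to 0.11 for Kcnj5, -0.04 to 0.86 for Kcnk2 and -0.72 to 0.1 for Kcnn2. H9C2 ranged from -0.42 to 1.48 for Kcna4, -0.19 to 0.72 for Kcnk2 and -1.45 to 0.04 for Kcnq1. The cause of these shifts was not tested. Scaled by library totals, all heart RNA genes together had a median of 0.08, and the members -0.04. Over the named genes and all alternatives, 920 values kept their direction and side of the threshold, 108 no longer passed, 9 newly passed and 28 changed sign. With 2 libraries a group, leaving one out makes a lone library stand for its group, with its spread taken from the other. Members under 1 CPM are limited by their counts.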

Other observations

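Called members were also counted by abundance. Among footprint genes with a mean of at least 10 CPM, 8 of 27 members were lower in cKO hearts (29.6%), against 12.0% of all such genes, and 2 were higher (7.41%, against 11.8%). In H9C2, 13 of 27 members between 1 and 10 CPM were higher in null cells (48.1%), against 16.9% of all such genes, as were 7 of 15 members at 10 CPM or more (46.7%, against 13.8%) and 6 of 27 members under 1 CPM (22.2%, against 9.33%). The summed level of the H9C2 members was 846.8, 792.0 and 822.6 CPM in null cells, against 718.7, 697.2 and 754.6 CPM in WT cells, without overlap.

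The partner genes were also counted in footprints. Of 17 cycling genes 1 rose and 6 fell, of 10 gap junction and disc genes 0 rose and 2 fell, of 23 anchors and regulators 2 rose and 1 fell, of 15 transcription factors 0 rose and 3 fell, and of 15 TRP and mechanosensitive channels 0 passed, where 9.11% of all genes rose and 7.33% fell. In H9C2 the skeletal muscle markers summed to 378.7 to 409.8 CPM in null and 241.9 to 286.7 CPM in WT cells. The ventricular markers summed to 12.5 to 14.4 CPM in null and 25.4 to 27.7 CPM in WT cells. Only 3 ventricular markers could be tested, of which 1 rose and 1 fell (Tnnt2, log2 fold change -1.57). Their median log2 fold change was 0.84, and 13.6% of all genes rose and 11.5% fell.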
